A study of Mus musculus with 9 samples.

Results

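The genes described here are 10 genes of the hepatocytes around the central vein of the liver lobule, a group known to depend on Wnt signaling: *Glul*, *Oat*, *Cyp1a2*, *Cyp2e1*, *Gulo*, *Rhbg*, *Slc1a2*, *Lgr5*, *Axin2* and *Tbx3*. They were taken by symbol from the 51912 genes of the deposited expression table, and each was found on 1 line. The 10 were chosen with the difference between the treatment groups already known, and *Cyp1a2*, *Gulo* and *Oat* are among the genes that the study's own heat map shows as lower. Their differences between the groups are therefore given as a description, with no test. By its caption, the study's heat map is limited to protein-coding genes with an adjusted p under 0.05. The study's methods name DESeq2 on counts as that test.

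RNA was measured in the livers of 9 mice of the genotype *Apoe*-/-*Ndst1* f/f *Alb-Cre*+, bred on the C57Bl/6 background and fasted. An antisense oligonucleotide (ASO) against apoC-III was given to 5 mice and a control ASO to 4 mice, each at 50 mg/kg/week by intraperitoneal injection for 8 weeks. All 9 mice lack apoE everywhere and, because the albumin promoter drives Cre in hepatocytes, the heparan sulfate sulfotransferase NDST1 in those cells. The study asked how lowering apoC-III acts on plasma lipids and lipoprotein clearance when apoE is absent, and liver RNA was one of its measurements. The age of the mice and their diet beside the RNA sequencing were not given in the sources used here.

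In the lobule, blood flows from the portal vein to the central vein, and hepatocytes differ along this path. Endothelial cells of the central vein release Wnt ligands and R-spondin, which keep β-catenin active in the hepatocytes next to them. These cells capture ammonia as glutamine and carry much of the cytochrome P450 system, whereas periportal cells make urea and glucose.

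Each level is in TPM (transcripts per 1000000), a length-corrected share of the library's transcripts, so levels may be set side by side between genes. Nuclear protein-coding genes made up only 3.04 to 5.31% of the TPM in the apoC-III ASO group and 1.94 to 8.64% in the control ASO group, and the 7SL RNA genes *Rn7s1* and *Rn7s2* took 64.0 to 83.6% over all livers. Values are therefore also given after rescaling these genes to 1000000 per liver and dividing by median-of-ratios factors, called rescaled TPM below. Control ASO replicate 4 had the lowest protein-coding share and a factor of 0.496, against 0.930 to 1.44 in the other 8 livers, and stood apart from them. Without the factors the median log2 difference of all genes between the groups is 0.41, so directions are also given on that scale. In the check of the target, *Apoc3* was at 27.2, 28.4, 15.8, 32.2 and 14 TPM in apoC-III ASO replicates 1 to 5 and at 271, 199.5, 184 and 41.4 TPM in control ASO replicates 1 to 4. The mean was 86.5% lower, and the exact two-sided permutation test gave p = 0.0159, the smallest value that 5 against 4 livers allow.

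All 10 members had a lower mean log2 level in the apoC-III ASO group on rescaled TPM, with log2 differences from -1.48 to -0.24 and a median of -0.63, beside -0.0013 over the 11968 genes tested. *Rhbg* reached the mean of at least 1 needed for testing only through the control livers, which fixed its direction. Of the 9 members with such a mean in both groups, 9 were lower. Without the median-of-ratios factors, 7 of the 10 were below 0, *Cyp1a2*, *Lgr5* and *Axin2* were above it, the members' median was -0.22, and 10 of 10 lay below the all-gene median of 0.41. In TPM as deposited, 6 members passed the filter of a mean of at least 1, all 6 were lower, and their median was -0.45 beside 0.11 over the 4936 genes tested. No member met the call (limma adjusted p under 0.05 and over 1.5-fold) on either scale. The limma fit on TPM thus did not recover *Cyp1a2*, *Gulo* and *Oat* of the study's heat map. The study's DESeq2 test on counts was not repeated. The share of genes called lower was 0.0167% of those tested on rescaled TPM and 0.122% on TPM as deposited. The groups did not overlap for 3 members on rescaled TPM, where 0.911% of all genes tested lay lower without overlap, and for 0 members on TPM as deposited, where that share was 0.0405%. These shares are given beside the counts only, because the members were chosen on this difference. In bulk tissue, fewer pericentral hepatocytes and less RNA per cell cannot be told apart.

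**Figure D1:**
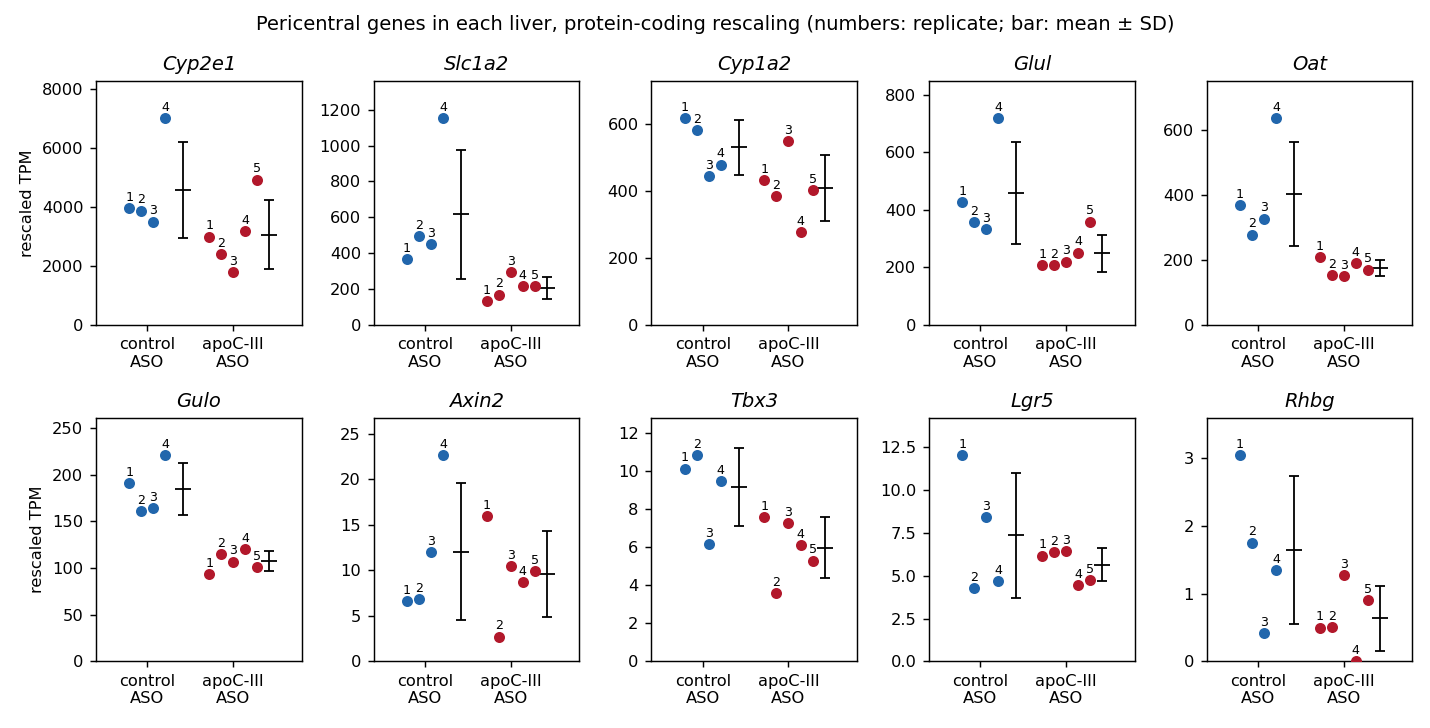
Rescaled TPM of the 10 pericentral genes in each liver, with 1 panel per gene and a linear axis from 0. Points are livers numbered by replicate (4 control ASO, 5 apoC-III ASO) and bars are the mean ± SD. For *Slc1a2*, *Oat* and *Gulo* every apoC-III ASO liver lies below every control ASO liver, and control ASO replicate 4 is the highest point for *Cyp2e1*, *Slc1a2*, *Glul*, *Oat*, *Gulo* and *Axin2*.

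The 250 bases before the start site of *Slc1a2* and *Oat*, which had the largest differences, and of *Cyp2e1* and *Cyp1a2*, the P450 genes of the group, are shown because TCF/LEF factors carry the Wnt signal to DNA. The windows come from RefSeq on GRCm38.p6 and lie at chr2:102706188-102706437 (plus strand), chr7:132576399-132576648 (minus strand), chr7:140763569-140763818 (plus strand) and chr9:57683656-57683905 (minus strand). Each is written 5′ to 3′ along the gene, and capitals mark a heptamer of the kind that TCF/LEF factors are known to bind. The heptamer CTTTGAA, the variant CTTTGAT, the further variant CTTTGTA and the last one, CTTTGTT, were searched on both strands.
Slc1a2: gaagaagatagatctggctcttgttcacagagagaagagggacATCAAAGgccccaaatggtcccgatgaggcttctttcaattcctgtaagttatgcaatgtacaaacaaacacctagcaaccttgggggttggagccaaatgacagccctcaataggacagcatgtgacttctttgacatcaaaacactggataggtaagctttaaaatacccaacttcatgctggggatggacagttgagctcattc
Oat: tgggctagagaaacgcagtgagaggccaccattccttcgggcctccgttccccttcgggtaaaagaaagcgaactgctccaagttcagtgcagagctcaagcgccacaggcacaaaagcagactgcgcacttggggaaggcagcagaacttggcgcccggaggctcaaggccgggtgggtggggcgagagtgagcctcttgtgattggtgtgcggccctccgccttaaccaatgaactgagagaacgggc
Cyp2e1: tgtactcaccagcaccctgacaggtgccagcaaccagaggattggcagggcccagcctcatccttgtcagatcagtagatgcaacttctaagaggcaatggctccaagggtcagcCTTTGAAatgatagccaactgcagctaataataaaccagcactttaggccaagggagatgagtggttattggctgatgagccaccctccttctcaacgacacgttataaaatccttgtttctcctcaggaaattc
Cyp1a2: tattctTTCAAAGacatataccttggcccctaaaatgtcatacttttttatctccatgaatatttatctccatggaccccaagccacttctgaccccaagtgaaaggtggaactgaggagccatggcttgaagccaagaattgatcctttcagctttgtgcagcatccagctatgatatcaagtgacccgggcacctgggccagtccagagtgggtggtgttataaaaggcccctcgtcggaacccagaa

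Capitals in the *Slc1a2* window start at position -207 and read the opposite strand of CTTTGAT. In the *Cyp2e1* window CTTTGAA starts at -135 on the gene's strand, and in the *Cyp1a2* window its reverse complement starts at -244. None of the 4 heptamers was in the windows of *Oat*, *Glul* and *Axin2*, which says nothing about other positions. The windows of *Glul* and *Axin2* are not printed, so windows with a match are over-represented among those shown. Of all 32851 windows of this length, 14.8% held at least 1 of the heptamers. The 4 share their first bases, and no 2 of them can match at the same position of a strand. The RefSeq start of *Slc1a2* lies 47779 bases inside the gene span of the GENCODE annotation, so this window lies within that span. The RefSeq starts of *Cyp2e1* and *Cyp1a2* lie 80 and 48 bases inside theirs. *Gulo*, *Rhbg*, *Lgr5* and *Tbx3* have no window here.

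Among the genes of ammonia and amino acid handling, *Slc1a2*, *Oat* and *Glul* were lower by 1.8- to 2.79-fold on the scale of log2(rescaled TPM + 1). *Slc1a2* encodes a glutamate transporter that brings glutamate into the cell, and lies at chr2:102658659-102790784 (GRCm38 and GENCODE M21 here and below, plus strand, ENSMUSG00000005089). Its rescaled TPM was 132, 168, 295, 216 and 217 in apoC-III ASO replicates 1 to 5. It was 368, 495, 451 and 1153 in control ASO replicates 1 to 4. The lowest control liver, replicate 1, was above the highest apoC-III ASO liver, replicate 3, so the groups did not overlap, and control ASO replicate 4 was more than 2-fold above the other controls. The means were 206 ± 61.2 (SD, n = 5) and 617 ± 361 (SD, n = 4), and the log2 difference was -1.48 ± 0.34 (SE). Without control ASO replicate 4 this difference was -1.13, and without the median-of-ratios factors -1.0 ± 0.29, where the groups overlapped.

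*Oat* encodes ornithine aminotransferase, the mitochondrial enzyme that turns ornithine toward glutamate, at chr7:132557478-132576398 (minus strand, ENSMUSG00000030934). Rescaled TPM of *Oat* was 208, 154, 149, 191 and 170.0 in the apoC-III ASO livers, in order of replicate. In the control ASO livers it was 369.7, 278, 328 and 638. No treated liver reached the control range, with replicate 1 the highest of the treated and replicate 2 the lowest of the controls. The log2 difference was -1.14 ± 0.26 (SE), or 2.21-fold lower, from means of 174 ± 25 (SD, n = 5) and 403 ± 161 (SD, n = 4). Without control ASO replicate 4, the highest control, it was -0.90 ± 0.20. *Oat* was the only member whose groups also stayed apart without the median-of-ratios factors, with a log2 difference of -0.66 ± 0.26.

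*Glul* encodes glutamine synthetase, which joins ammonia to glutamate and marks the hepatocytes that border the central vein, at chr1:153899944-153909723 (plus strand, ENSMUSG00000026473). Its rescaled TPM was 206, 207, 219, 251 and 359 in the apoC-III ASO livers. The control ASO livers had 428, 357, 332 and 719. Replicates 1 to 4 of the apoC-III ASO group were below every control liver, and replicate 5 reached into the control range. The log2 difference of *Glul* was -0.85 ± 0.27 (SE), with means of 249 ± 64.1 (SD, n = 5) and 459 ± 178 (SD, n = 4), and -0.37 ± 0.25 without the factors. On rescaled TPM without control ASO replicate 4, the highest control, it was -0.61 ± 0.23.

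*Rhbg*, at chr3:88242874-88254709 (minus strand, ENSMUSG00000104445), encodes an ammonia transporter of the basolateral membrane and was the least abundant member. Rescaled TPM of *Rhbg* was 0.50, 0.51, 1.28, 0 and 0.903 in the apoC-III ASO livers and 3.04, 1.75, 0.421 and 1.35 in the control ASO livers. It was listed at 0 in apoC-III ASO replicate 4, the groups overlapped through control ASO replicate 3, and control ASO replicate 1 was the highest. Its log2 difference was -0.64 ± 0.35 (SE), and its mean passed the filter only through the control livers, which fixed its direction.

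The P450 genes had smaller log2 differences than *Slc1a2*, *Oat* and *Glul*. *Cyp2e1*, which encodes an enzyme that oxidizes ethanol, acetaminophen and other small molecules, lies at chr7:140763739-140774987 (plus strand, ENSMUSG00000025479) and was the most abundant member. Rescaled TPM of *Cyp2e1* was 2991, 2409, 1794, 3177 and 4929 in the apoC-III ASO livers. It was 3953, 3875, 3502 and 7012 in the control ASO livers. Replicates 1 to 4 of the apoC-III ASO group were below every control liver, whereas replicate 5 was above 3 of the 4. The log2 difference of *Cyp2e1* was -0.61 ± 0.33 (SE) and -0.13 ± 0.27 without the factors, in both cases less than 2 SE. Without control ASO replicate 4 the difference was -0.38 ± 0.32.

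*Cyp1a2* encodes an enzyme that oxidizes caffeine and aromatic amines and lies at chr9:57676937-57683703 (minus strand, ENSMUSG00000032310). Rescaled TPM of *Cyp1a2* was 433, 385, 549, 276 and 403 in the apoC-III ASO livers. The control ASO livers had 618, 583, 444 and 479, and here control ASO replicate 4 was not the highest. All apoC-III ASO livers except replicate 3 lay below every control liver. The log2 difference of *Cyp1a2* was -0.40 ± 0.23 (SE), -0.09 ± 0.68 in TPM as deposited and 0.08 ± 0.36 without the factors, where its sign turned.

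*Gulo* encodes gulonolactone oxidase, the last enzyme of ascorbate synthesis, at chr14:65986786-66009207 (minus strand, ENSMUSG00000034450). Rescaled TPM of *Gulo* was 93.4, 115, 107, 120.3 and 101 in the apoC-III ASO livers. It was 191, 161, 164 and 221 in the control ASO livers. The treated and control ranges were apart, and the treated livers were closer to each other (SD 10.7) than the controls (SD 27.9). *Gulo* had the smallest SE of the members, with a log2 difference of -0.77 ± 0.19, or 1.7-fold lower. Without the factors the difference was -0.29 ± 0.28, and the groups overlapped. On rescaled TPM without control ASO replicate 4, the highest control, it was -0.68 ± 0.18.

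The 3 genes nearest to the Wnt signal itself, *Tbx3*, *Axin2* and *Lgr5*, were expressed far below the metabolic genes, and the groups overlapped for each of them. *Tbx3* encodes a T-box transcription factor and lies at chr5:119670669-119684724 (plus strand, ENSMUSG00000018604). Its rescaled TPM was 7.6, 3.6, 7.27, 6.11 and 5.29 in the apoC-III ASO livers and 10.1, 10.8, 6.17 and 9.49 in the control ASO livers. Control ASO replicate 3 lay within the treated range, and the other 3 controls were above every treated liver. The log2 difference of *Tbx3* was -0.55 ± 0.26 (SE) and -0.14 ± 0.36 without the factors.

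*Axin2*, at chr11:108920349-108950783 (plus strand, ENSMUSG00000000142), encodes a scaffold of the β-catenin destruction complex that Wnt signaling itself induces. Rescaled TPM of *Axin2* was 16, 2.71, 10.4, 8.72 and 9.92 in the apoC-III ASO livers and 6.59, 6.85, 12 and 22.7 in the control ASO livers. Both the lowest and the second highest of the 9 values were in treated livers, replicates 2 and 1, and the highest was control ASO replicate 4. The log2 difference of *Axin2* was -0.30 ± 0.45 (SE), and its sign turned without control ASO replicate 4 (0.05), without apoC-III ASO replicate 2 and without the factors (0.14 ± 0.41).

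*Lgr5*, at chr10:115450311-115587780 (minus strand, ENSMUSG00000020140), encodes an R-spondin receptor that strengthens the Wnt signal. Rescaled TPM of *Lgr5* was 6.17, 6.38, 6.41, 4.44 and 4.73 in the apoC-III ASO livers and 12, 4.26, 8.39 and 4.67 in the control ASO livers. The treated livers lay within the control range, and control ASO replicate 1 was the highest. The log2 difference of *Lgr5* was -0.24 ± 0.29 (SE), with the opposite sign without control ASO replicate 1 (0.01) and without the factors (0.15 ± 0.40).

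By median rescaled TPM in the control ASO group, the order was *Cyp2e1* (3914), *Cyp1a2* (531), *Slc1a2* (473), *Glul* (393), *Oat* (349), *Gulo* (178), *Tbx3* (9.8), *Axin2* (9.41), *Lgr5* (6.53) and *Rhbg* (1.55). The ranges of neighbors overlapped among *Cyp1a2*, *Slc1a2*, *Glul* and *Oat* and among *Tbx3*, *Axin2* and *Lgr5*. *Cyp2e1*, *Gulo* and *Rhbg* were each apart from their neighbors in every control liver. In the apoC-III ASO group *Glul* (219) and *Slc1a2* (216) were in the other order by median, and their ranges overlapped. The low genes were in another order there, with *Axin2* at 9.92, *Lgr5* at 6.17 and *Tbx3* at 6.11, again with overlapping ranges.

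In TPM as deposited the groups of every member overlapped. Control ASO replicate 4 was there the lowest of the 9 livers for *Glul*, *Cyp1a2*, *Cyp2e1*, *Gulo*, *Lgr5* and *Tbx3*. *Slc1a2* was at 9.53, 11.1, 13.9, 11.2 and 6.25 TPM in the apoC-III ASO livers and at 29.5, 31.1, 23.8 and 11.1 TPM in the control ASO livers. Without control ASO replicate 4, the controls were all above the treated livers for *Slc1a2*, and the same held for *Oat* (4.9 to 15 TPM treated and 29.7, 17.5, 17.3 and 6.15 TPM in controls 1 to 4). *Glul* had 10.3 to 14.8 TPM in the treated livers and 34.4, 22.5, 17.5 and 6.94 TPM in the controls, with the same exception. The log2 differences on this scale were -1.07 ± 0.65 for *Slc1a2*, -0.75 ± 0.62 for *Oat*, -0.49 ± 0.65 for *Glul*, -0.41 ± 0.56 for *Gulo* and -0.27 ± 0.71 for *Cyp2e1* (SE). *Axin2*, *Tbx3*, *Lgr5* and *Rhbg* were under 1 TPM in the mean and reached at most 1.15, 0.814, 0.967 and 0.245 TPM.

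**Figure D2:**
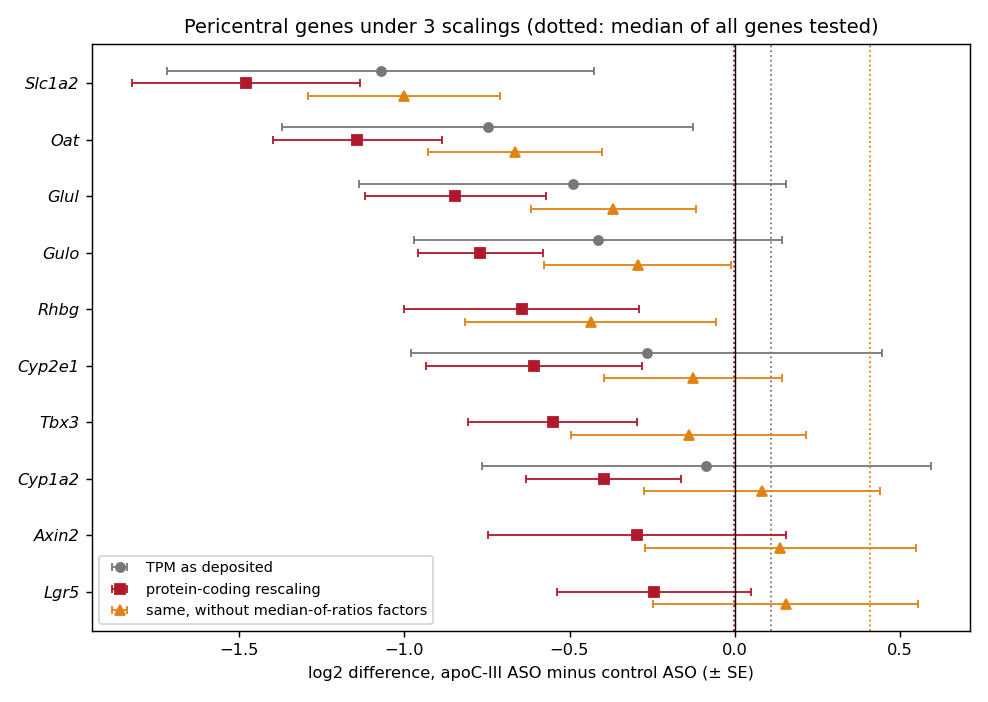
Log2 difference (apoC-III ASO minus control ASO) of each pericentral gene with its SE, on 3 scales, with a dotted line at the median of all genes tested on that scale. On rescaled TPM the 10 genes run from -1.48 to -0.24, and without the median-of-ratios factors *Cyp1a2*, *Lgr5* and *Axin2* lie above 0 but below that scale's median of 0.41.

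A comparison inside each liver does not depend on how the liver is scaled, apart from the pseudocount. The mean log2 level of the 10 members minus that of 19 periportal genes was -2.46, -2.04, -1.75, -2.68 and -2.34 in apoC-III ASO replicates 1 to 5 and -1.42, -1.70, -1.76 and -1.45 in control ASO replicates 1 to 4. The group means were -2.25 ± 0.36 (SD, n = 5) and -1.58 ± 0.17 (SD, n = 4), a difference of -0.67. The groups touched, with apoC-III ASO replicate 3 level with control ASO replicate 3. Over the 6 members that passed the filter in TPM as deposited, the same measure was -0.23, 0.47, 0.51, -0.20 and 0.13 in the treated livers and 1.0, 0.87, 0.78 and 1.28 in the controls, with no overlap. The periportal genes themselves had mean log2 levels of 8.18 ± 0.40 and 8.21 ± 0.17 (SD), a difference of -0.03. These values contain the contrast on which the members were chosen and carry no test.

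The periportal list, which includes the urea cycle enzymes and *Cyp2f2*, had 13 of 19 genes lower and 6 higher on rescaled TPM, with a median of -0.15. None was called, and *Hal*, the histidine ammonia-lyase, had the only unadjusted limma p under 0.05 (limma adjusted p = 0.88, log2 difference 0.76 ± 0.33), where 3.0% of all genes tested had such a p with a higher level. *Hal* was at 124, 109, 179, 82.4 and 140.2 in the treated and 108, 94.4, 71.2 and 36.5 in the control livers, and the groups overlapped. Without control ASO replicate 4 the log2 difference of *Hal* was 0.44 ± 0.27, and 0 periportal genes had such a p. The list's median ran from -0.28 without apoC-III ASO replicate 4 to 0.03 without apoC-III ASO replicate 3, so its sign rests on single livers. Without the factors 19 of 19 periportal genes were above 0, with a median of 0.33, below the all-gene median of 0.41, and 5 of them (*Hal*, *Gls2*, *Cdh1*, *Cyp2f2* and *Hsd17b6*) were higher at that unadjusted p. The share of all genes higher at that p without the factors is not given here, so this count is not read as a result about the list.

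**Figure D3:**
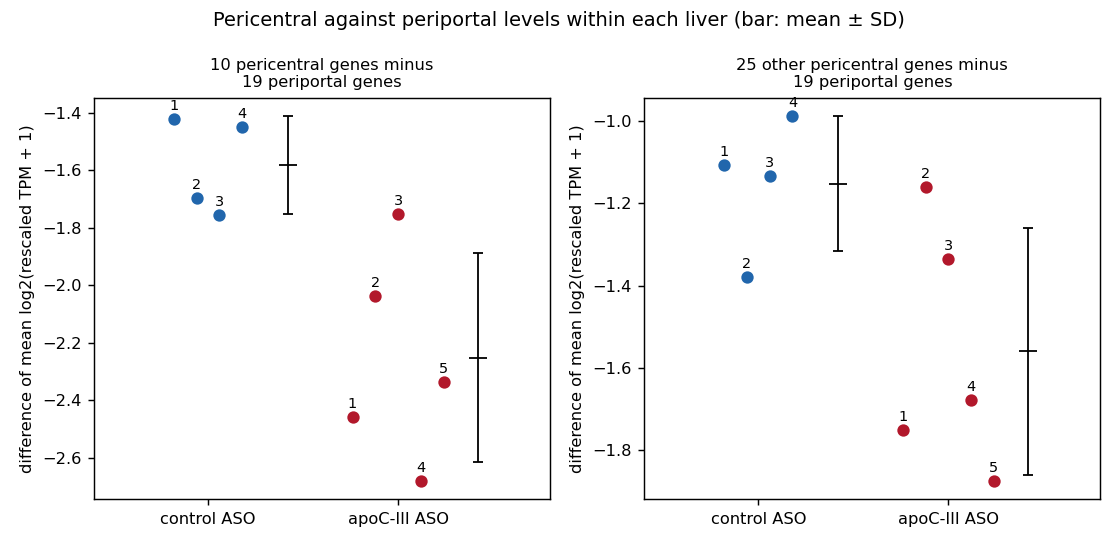
Mean log2(rescaled TPM + 1) of pericentral genes minus that of 19 periportal genes within each liver, for the 10 members (left) and for 25 other pericentral genes (right). Points are livers numbered by replicate and bars are the mean ± SD; the members' means are -1.58 in the control ASO and -2.25 in the apoC-III ASO group, and those of the other genes -1.15 and -1.56. The axes do not start at 0.

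The 26 other pericentral genes, written from general knowledge, were mostly lower on rescaled TPM. Of the 25 tested, 21 were below 0 and 4 above it, with a median of -0.44, or -0.23 without control ASO replicate 4, and 0 were called. An unadjusted limma p under 0.05 with a lower level was found for 7 of the 25, beside 2.57% of all genes tested. The 7 were *Cyp2c29*, *Cyp2c37*, *Cyp2c50*, *Cyp2c54*, *Lect2*, *Slc13a3* and *Slc22a3*, and the direction of *Slc22a3* was fixed by the filter. The Cyp2c genes among them are near copies of each other, so the 7 are not separate observations. The groups did not overlap for 3 (*Cyp2c29*, *Cyp2c37* and *Lect2*), where 0.911% of all genes tested lay lower without overlap. Without the factors the list had 11 lower and 14 higher, with a median of 0.03 beside 0.41 for all genes, and 2 lower and 1 higher at that p. The shares of all genes at that p without the factors are not given here. *Cyp2c29* and *Lect2* are also in the study's own heat map, so these counts are not independent of it. The limma fit on TPM called neither of them. Relative to the periportal genes, the 25 stood at -1.75, -1.16, -1.34, -1.68 and -1.88 in the treated livers and -1.11, -1.38, -1.13 and -0.99 in the controls, and the groups overlapped.

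*Cyp2c29*, an epoxygenase and P450 of the pericentral zone, was at 695, 665, 673, 672 and 569 rescaled TPM in the apoC-III ASO livers and 1207, 1150.1, 1199.8 and 2156 in the control ASO livers. *Lect2*, a secreted protein of hepatocytes and a known β-catenin target, was at 47.2, 48.5, 56.2, 44.9 and 39.1 in the treated livers and 104, 75.5, 77.6 and 92 in the controls. *Cyp2c37*, a close relative of *Cyp2c29*, was at 78.4, 68.7, 40.0, 84 and 80.0 in the treated livers and 136, 123, 92.3 and 305 in the controls. The groups did not overlap for any of these, and their log2 differences were -1.07 ± 0.23, -0.87 ± 0.19 and -1.10 ± 0.34 (SE), with limma adjusted p of 0.65, 0.65 and 0.86. The Cyp2c genes are near copies of each other, so their separate levels are uncertain. *Slc22a3*, an organic cation transporter (-1.07 ± 0.34), and *Slc13a3*, a dicarboxylate transporter (-1.04 ± 0.34), were the list's other genes under the rule for named genes. Their groups overlapped. *Slc22a3* was at 0.863, 0.223, 0.175, 0.706 and 0.535 rescaled TPM in the treated livers and 2.71, 0.673, 1.84 and 4.25 in the controls, and like *Rhbg* it passed the filter only through the controls, which fixed its direction. Of the other 24 genes of the list, 20 were lower.

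The ligands, receptors, effectors, inhibitors and some induced targets of the pathway made up a list with no calls. Because their roles oppose each other, the list's median gives no direction of pathway activity. Of 41 Wnt pathway genes, 28 passed the filter, 10 were lower and 18 higher, with a median of 0.17, and 0 were called or had an unadjusted limma p under 0.05. Without the factors 4 of 29 were lower and 25 higher, with a median of 0.57 beside 0.41, and 5 (*Axin1*, *Lrp5*, *Bcl9*, *Csnk1a1* and *Dvl2*) were higher at that unadjusted p. Without control ASO replicate 4, *Znrf3* was lower at that p, its groups did not overlap, and 0 genes were called. The shares of all genes at that p in these settings are not given here, so these counts are not read as a result about the pathway. *Rspo3*, the R-spondin of the central vein, was at 1.7, 3.73, 4.46, 1.11 and 1.47 rescaled TPM in the treated livers and 3.04, 4.02, 4.59 and 2.29 in the controls, a log2 difference of -0.43 ± 0.33 with overlapping groups. The endothelial ligands *Wnt2* (0.442 to 1.52 treated, 0.32 to 1.13 control) and *Wnt9b* (0.0616 to 0.209 treated, 0.102 to 0.515 control) were under the filter.

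*Znrf3* and *Rnf43* encode ubiquitin ligases that remove Wnt receptors from the cell surface. *Znrf3* was at 2.0, 2.34, 1.65, 3.42 and 2.43 rescaled TPM in the treated livers and 4.11, 3.53, 4.35 and 2.95 in the controls (-0.50 ± 0.24), and only apoC-III ASO replicate 4 reached into the control range. *Rnf43* was at 12, 18.1, 17.7, 15.1 and 19.6 in the treated livers and 21.5, 19.1, 20.5 and 4.96 in the controls, with control ASO replicate 4 far below the other controls. Its log2 difference was 0.15 ± 0.37, and without that liver it was -0.30 ± 0.21, so its direction turned. The R-spondin receptor *Lgr4* (0.18 ± 0.28), β-catenin itself, *Ctnnb1* (0.29 ± 0.24), and its partner on DNA, *Tcf7l2* (0.16 ± 0.29), had differences within 2 SE of 0 and overlapping groups.

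**Figure D4:**
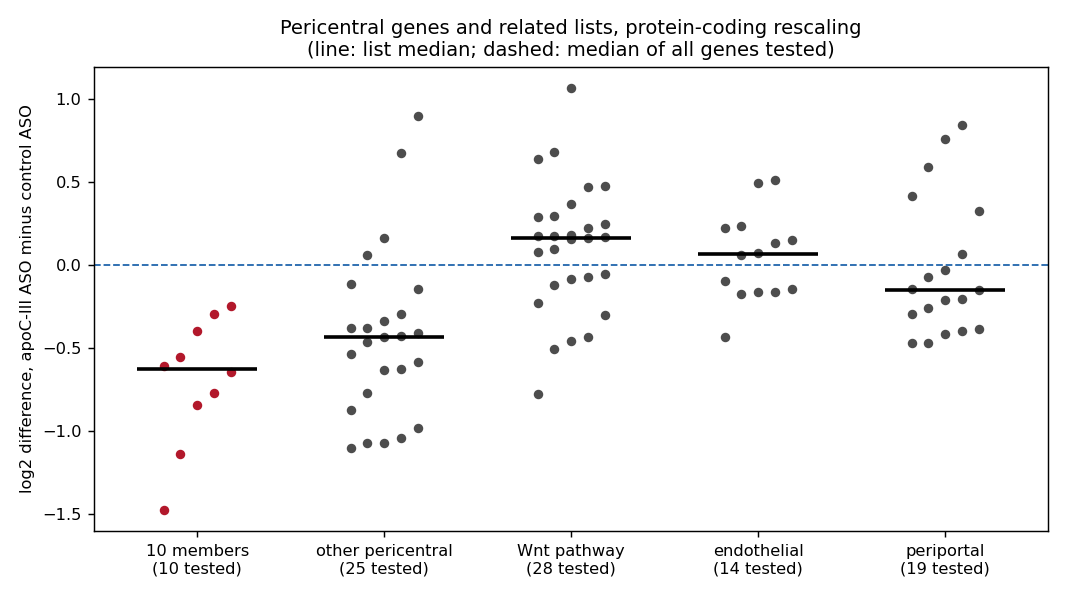
Log2 difference (apoC-III ASO minus control ASO, rescaled TPM) of each gene tested, by list, with a line at the list's median and a dashed line at the median of all genes tested. The medians are -0.63 for the 10 members, -0.44 for the other pericentral, 0.17 for the Wnt pathway, 0.07 for the endothelial and -0.15 for the periportal genes; without the median-of-ratios factors they are -0.22, 0.03, 0.57, 0.45 and 0.33, beside 0.41 for all genes.

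Genes of the other cells of the liver were measured beside the members. The 16 endothelial genes, of which *Wnt2*, *Wnt9b* and *Rspo3* are also in the Wnt list, had 6 lower and 8 higher among 14 tested, a median of 0.07 and 0 calls, and their summed level was 189 to 449 in the apoC-III ASO group and 221 to 371 in the control ASO group. Hepatocyte markers summed to 22849 to 51162 in the apoC-III ASO group and 28965 to 37325 in the control ASO group, and 5 of 7 were lower, with a median of -0.15. *Alb* alone made up most of these sums, at 15301 to 39703 in the apoC-III ASO and 19505 to 25963 in the control ASO livers. Stellate cell markers had 5 of 6 lower, with a median of -0.39 on rescaled TPM and -0.05 without the factors, and summed to 118 to 144 in the apoC-III ASO group and 134 to 256 in the control ASO group. *Lrat*, the retinol-storing enzyme of stellate cells and named after its values were seen, did not overlap between the groups (1.14, 1.41, 0.977, 1.6 and 1.63 rescaled TPM in the treated livers, against 3.54, 2.72, 2.29 and 5.28 in the controls). It was the only 1 of the 6 stellate markers without overlap, and 0.911% of all genes tested lay lower without overlap. The part of stellate cells in the members' differences was not tested. Macrophage markers summed to 61.6 to 94.4 in the apoC-III ASO group and 58.8 to 108 in the control ASO group, and 3 of 5 tested were lower. Cholangiocyte markers summed to 37.9 to 81.3 in the apoC-III ASO group and 41 to 121 in the control ASO group, with *Krt19* and *Epcam* at 0 in at least 1 liver. Lymphocyte markers summed to 7.82 to 20.0 in the apoC-III ASO group and 12.2 to 20.8 in the control ASO group, with *Cd3e*, *Cd79a* and *Ms4a1* at 0 in at least 1 liver.

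Genes of the circadian clock also differed between livers. Of 14 clock genes tested, 11 were lower and 3 higher. *Bhlhe41* passed the filter only through the controls, which fixed its direction, and 10 of the other 13 were lower. *Per2* (-2.31 ± 0.77), *Arntl* (2.02 ± 0.73) and *Per3* (-1.80 ± 0.81) had an unadjusted limma p under 0.05, with 0 called. Over all genes tested, 2.57% had such a p with a lower level and 3.0% with a higher level. *Arntl*, the positive arm of the clock, was at 17.7, 11.1, 30.9, 0.74 and 2.74 rescaled TPM in apoC-III ASO replicates 1 to 5 and at 0.32, 1.06, 1.11 and 2.46 in the controls, so that replicates 1 to 3 were above all other livers. With a signed clock score as a covariate, chosen after seeing the data, the members' median was -0.70 on rescaled TPM, with 10 of 10 lower, and -0.20 over the 6 members tested in TPM as deposited, where *Cyp1a2* (0.04) and *Cyp2e1* (0.11) were above 0. With the mean clock score as the covariate, the median in TPM as deposited was -0.27, and *Cyp2e1* was above 0 (0.02). The part of the clock in the members' differences was not tested.

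After each group's mean was subtracted, the 45 pairs of members had a median Pearson r of 0.13 over the 9 livers, and 27 were positive. With each liver left out in turn this median ran from 0.014 without control ASO replicate 3 to 0.24 without apoC-III ASO replicate 3. The 15 pairs of the 6 abundant members had a median r of 0.48, and 0.09 without control ASO replicate 4. *Glul* and *Cyp2e1* were the closest pair (r = 0.86, and 0.81 without control ASO replicate 4), followed by *Cyp1a2* and *Rhbg* (r = 0.86, and 0.87 without it). *Glul* and *Oat* had r = 0.69, and 0.33 without control ASO replicate 4. The most opposed pair was *Slc1a2* and *Lgr5* (r = -0.56, and -0.40 without it). All values of a liver share its library and its scaling factor, and these correlations are a description.

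Among 6531 genes with a mean rescaled TPM of at least 10, the 5 whose within-group deviations over the 9 livers were most like the members' mean deviation were *Snx15* (r = 0.949), *Tmem143* (0.940), *Rarres1* (0.923), *Hint2* (0.914) and *Cryzl1* (0.912). Without control ASO replicate 4 their r ran from 0.835 to 0.937, and *Tmem143* ranked 1 and *Hint2* ranked 15. Spearman rho over the 9 livers was 0.98 for *Snx15*, 0.92 for *Tmem143* and *Hint2*, and 0.80 for *Rarres1* and *Cryzl1*. These are the highest of 6531 values over only 9 livers, and genes unrelated to the members can reach such values by chance. A link to the members was not tested.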

How the data were processed

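Livers of 9 mice were compared by RNA sequencing of ribo-depleted stranded single-end libraries. The deposited values are TPM, credited in the submitters' processing notes to kallisto 0.43.1 and GRCm38. The study's methods name STAR, featureCounts and DESeq2 instead, whose counts were not used here. TPM keeps no depth, and no counting error was available per liver. Of 51912 identifiers, 99.6% matched GENCODE M21. Protein-coding rescaling kept nuclear protein-coding genes, set each liver to 1000000 and divided by median-of-ratios factors over 12263 genes. Limma 3.58.1 in R 4.3.3 (lmFit, eBayes with trend) was fitted on log2(value + 1) to all genes with a mean of at least 1, without covariates, with Benjamini-Hochberg adjustment over all genes tested. Fold differences are on this scale and understate those of low genes. The SE of each member comes from this fit. Calls, directions and log2 differences of the fit were checked on simulated data, and the SE was not. The simulated noise was independent between livers, without a shared scaling error or an outlying liver. *Apoc3* was tested with an exact permutation test on TPM. Groups came from the sample labels, which do not say more of each mouse than its ASO. The members, the lists and the rule for named genes were chosen with earlier results of these data known. That rule takes the members, *Apoc3*, 8 central genes of the Wnt pathway, up to 5 genes per list with an unadjusted p under 0.05 and 5 genes most like the members. Alternatives were pseudocounts of 0.1 and 0.5, no filter, a minimum of 5, other scalings, array weights, no trend, clock scores, a replicate block and each liver left out. Values were handled in pandas 2.3.3 under Python 3.11.15, tested with scipy 1.17.1 and drawn with matplotlib 3.10.9.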

Additional observations from a re-analysis of the deposited data

Results flagged for a closer look

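In 5 of the 80 groups of values examined, a single liver lay far from the others of its group by Dixon's criterion, which chance gives in about 5% of groups. Control ASO replicate 4 was the highest of its group for *Cyp2e1*, at 7012 rescaled TPM against 3502 to 3953 in the other controls, and for *Slc1a2*, at 1153 against 368 to 495. For *Cyp2c29* control ASO replicate 4 was at 2156 against 1150.1 to 1207, and apoC-III ASO replicate 5 was the lowest of its group at 569 against 665 to 695. For *Rnf43* control ASO replicate 4 was the lowest, at 4.96 against 19.1 to 21.5. Of these 5 values, 4 were in control ASO replicate 4, the liver with the lowest protein-coding share (1.94% of TPM) and the factor farthest from the rest (0.496). Without the median-of-ratios factors, control ASO replicate 4 was at 3481 for *Cyp2e1*, against 3275 to 4499 in the other controls. For *Slc1a2* it was then at 572, against 342 to 574, so it lay within the range of the other controls for both genes. Levels of *Cyp2c29* and *Rnf43* without the factors are not given here. The part of that liver's scaling in these values was not tested.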

How the results depend on the processing

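On rescaled TPM the members' median log2 difference of -0.63 was -0.22 without the median-of-ratios factors, where the all-gene median was 0.41. Across the livers left out in turn it ran from -0.77 to -0.57, and with control ASO replicate 4 left out 9 of 10 members were lower. In TPM as deposited the median of the 6 members tested was -0.45. It ran from -0.90 without control ASO replicate 4 to -0.14 without control ASO replicate 1, so its size depended on which control liver was left out. Without the filter it was -0.20 over 10 members, with array weights -0.78, with median-of-ratios scaling -0.73 and with the clock scores -0.27 and -0.20. The difference between members and periportal genes within a liver, -0.67, ran from -0.80 to -0.56 across livers left out and was -0.53 in TPM as deposited. *Slc1a2*, *Oat*, *Glul* and *Gulo* were lower in all 19 alternatives on each scale. The sign turned for *Axin2* in 3 of 19 and for *Lgr5* in 2 of 19 alternatives on rescaled TPM, for *Cyp1a2* in 1 of 19 on rescaled TPM and 6 of 19 in TPM as deposited, and for *Cyp2e1* in 3 of 19 in TPM as deposited. *Rhbg* was under the minimum of 5 and was lower in its 18 alternatives, from -1.39 with a pseudocount of 0.1 to -0.41. The filter fixed its direction in the main fit, so these signs add no support. The groups share replicate numbers, but deviations of same-numbered livers correlated at 0.07, 0.12, 0.03 and 0.19, so the numbers were not taken to pair the livers. With a replicate block, which leaves apoC-III ASO replicate 5 without a partner, the members' median was -0.73 on rescaled TPM and -0.34 in TPM as deposited, and no list gained or lost a call. For the Wnt pathway list the median of 0.17 was 0.07 without control ASO replicate 4. Of the values that answer a comparison, 168 stayed within 1 SD of the reported value or on its side of the threshold, and 1 moved, the median of -0.22 above. Of the other values, 392 stayed and 11 moved. The lists had 0 calls with each liver left out in turn. These tallies therefore say little about how stable the sizes of the differences were. The fall of *Apoc3* ran from 83.4 to 89.2% across livers left out. Depth is unknown in TPM, so how far it limits the low members *Rhbg*, *Lgr5*, *Axin2* and *Tbx3* could not be given.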
